A study of Mus musculus with 8 samples.

Results

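The interferon regulatory factor (IRF) genes Irf1, Irf2, Irf3, Irf4, Irf5, Irf7, Irf8 and Irf9 were followed in mouse pro-B cells treated to degrade the transcription factor EBF1, which commits cells to the B lineage. They were chosen by family membership, with earlier results of these data known, and are 8 of the 47937 genes in the count tables. The line has the genotype EBF1-dTAG_N and was immortalised by the Abelson virus (A-MuLV), a mouse leukaemia virus that transforms B-lineage cells. In this line the endogenous EBF1 had been replaced by a modified gene whose product carries the dTAG degron, a tag that the small molecule dTAG-13 hands to the cell's protein disposal machinery. 4 libraries came from cells given 0.5 µM dTAG-13 for 6 h and 4 from cells given the solvent DMSO for 6 h; the titles write the DMSO libraries as 0 h. Both groups carry the tag, and no group without it was used here, so effects of the compound itself and of EBF1 loss cannot be told apart. The labels call the libraries replicates, and nothing in them says that each began as a separate clone, so p-values measure the spread between these libraries. The line is transformed, and its IRF levels need not be those of a pro-B cell in the marrow.

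IRF proteins are transcription factors that share an amino-terminal DNA-binding domain and read GAAA repeats. IRF3, IRF5 and IRF7 sit in the cytoplasm until kinases downstream of nucleic acid and Toll-like sensors phosphorylate them, after which they switch on the type I interferon genes. IRF9 joins STAT proteins in the complex ISGF3, which answers the interferon receptor, and IRF1 and IRF2 bind many of the same elements with IRF1 as an activator and IRF2 mostly as a repressor. IRF4 and IRF8 are the lymphoid and myeloid members; they bind weakly alone and pair with the ETS factors PU.1 and SPIB. In early B cells they act together to turn down the surrogate light chain and to open the immunoglobulin light chain loci.

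Ribosomal RNA was depleted from total RNA, and the deposited counts give reads over exons and over whole genes. Exonic reads ran from 28982316 to 38999496 per library. Of these, 25.7% to 29.3% fell on Gm26917 and Gm42418, genes that overlap ribosomal RNA. Intronic reads, the whole-gene count minus the exon count, made up 20.4% to 27.3% of whole-gene reads. Ebf1 RNA, which the degron does not target and which holds the modified gene's message as well as any endogenous one, went from 622.6 to 767.2 CPM (counts scaled to library size; log2 change 0.30 ± 0.04, SE), so it gives no check of the protein. Pro-B markers were well read: Pax5 averaged 576.3 and 409.5 CPM in DMSO and dTAG-13, Cd79a 420.0 and 340.4 CPM, Il7r 299.5 and 230.4 CPM, and Rag1 67.1 and 32.2 CPM. Of 8 myeloid markers all lay under 1 CPM and Cd14, Elane, Csf3r and Ly6g were at 0, with sums of 0.162 to 0.449 CPM in DMSO and 0.485 to 1.12 CPM in dTAG-13. Of 7 dendritic cell markers all lay under 1 CPM, with Clec9a and Ccr9 at 0 and sums of 0 to 0.261 and 0.218 to 0.383 CPM. Among 6 T cell markers Cd3e, Cd3g, Cd4 and Cd8a were at 0, with sums of 0.183 to 0.587 and 0.204 to 0.657 CPM. The plasma cell markers Sdc1, Jchain and Xbp1 summed with Prdm1, which was at 0, to 49.1 to 53.6 CPM and after treatment to 36.3 to 40.3 CPM; Xbp1 (41.0 to 30.1 CPM) and Sdc1 (9.21 to 6.23 CPM) were lower and Jchain (1.11 to 2.66 CPM) higher. The part of any marker list in the results was not tested. In bulk RNA, fewer cells with a transcript and less transcript per cell cannot be told apart.

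The sequence before the start of 4 members is shown because these genes carry the results that follow: Irf1 and Irf4 changed in exonic and in intronic reads, and Irf2 and Irf8 are their counterparts in the family. Each run is the 250 bases before the RefSeq start on the plus strand of GRCm38.p6, at chr11:53769764-53770013 for Irf1, chr8:46739495-46739744 for Irf2, chr13:30748983-30749232 for Irf4 and chr8:120736108-120736357 for Irf8. Capitals mark letters that matched one of 5 motifs searched on both strands.
Irf1: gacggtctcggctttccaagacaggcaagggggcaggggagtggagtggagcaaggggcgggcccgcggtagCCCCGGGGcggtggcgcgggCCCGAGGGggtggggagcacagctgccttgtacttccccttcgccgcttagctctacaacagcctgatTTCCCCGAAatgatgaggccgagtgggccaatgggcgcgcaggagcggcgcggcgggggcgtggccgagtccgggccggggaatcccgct
Irf2: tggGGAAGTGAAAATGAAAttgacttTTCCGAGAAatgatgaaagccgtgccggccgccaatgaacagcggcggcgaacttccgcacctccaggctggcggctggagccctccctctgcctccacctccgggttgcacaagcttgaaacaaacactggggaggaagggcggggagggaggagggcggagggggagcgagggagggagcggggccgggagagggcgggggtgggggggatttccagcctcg
Irf4: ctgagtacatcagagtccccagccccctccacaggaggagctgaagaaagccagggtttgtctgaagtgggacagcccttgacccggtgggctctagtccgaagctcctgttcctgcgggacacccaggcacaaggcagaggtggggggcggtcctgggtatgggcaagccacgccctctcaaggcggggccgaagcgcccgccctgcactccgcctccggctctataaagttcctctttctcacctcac
Irf8: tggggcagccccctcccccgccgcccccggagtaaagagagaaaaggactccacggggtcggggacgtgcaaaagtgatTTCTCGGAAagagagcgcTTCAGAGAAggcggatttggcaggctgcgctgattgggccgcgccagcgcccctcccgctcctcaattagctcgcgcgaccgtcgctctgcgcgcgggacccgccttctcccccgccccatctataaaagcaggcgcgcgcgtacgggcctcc

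The motifs were an EBF1 site (TCCC and GGGA around 2 free bases), its shorter core (CCCNNGGG), an interferon-stimulated response element (GAAA and GAAA around 2 free bases), an ETS-IRF composite element (GGAA and GAAA around 2 free bases) and a STAT-bound GAS element (TTCNNNGAA), searched from 250 bases before to 50 bases after each start. All 8 members had a RefSeq window, 11 windows in all. The full EBF1 site stood in 0.904% of 32851 windows and in those of 0 members. Its core, present in 13.7% of windows, was found at Irf1, 178 to 171 and 158 to 151 bases before the start, and at Irf8 just past the start, outside the printed run. The GAS letters, in 8.3% of windows, were found at Irf1 (90 to 82 bases before the start), at Irf2 (224 to 216) and at 2 places before Irf8 (171 to 163 and 153 to 145). Irf2 alone among the members held the response element (241 to 232, against 3.44% of windows) and the composite element (247 to 238, against 2.72%), and these 2 matches overlap. The printed stretch of Irf4 held no match. These are matches of letters, and binding was not measured here.

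After dTAG-13, exonic reads of 3 members rose and of 4 fell, and Irf3 did not pass the test. Irf4 fell by 21.0% and Irf5 by 18.3%, Irf1 was 1.37-fold higher, and Irf7, scarcely read, was 2.02-fold higher. A gene was called at an adjusted p below 0.05 (edgeR's quasi-likelihood test, Benjamini-Hochberg over all 12889 genes tested), and 28.3% of those genes were called, 14.3% higher and 14% lower. The 4 treated libraries lay wholly to one side of the 4 controls for 6 of the 8 members, against 27.7% of all genes tested. The median change of the 8 was -0.06 on the log2 scale, beside -0.003 over all genes tested, so the family did not move one way.

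**Figure D1:**
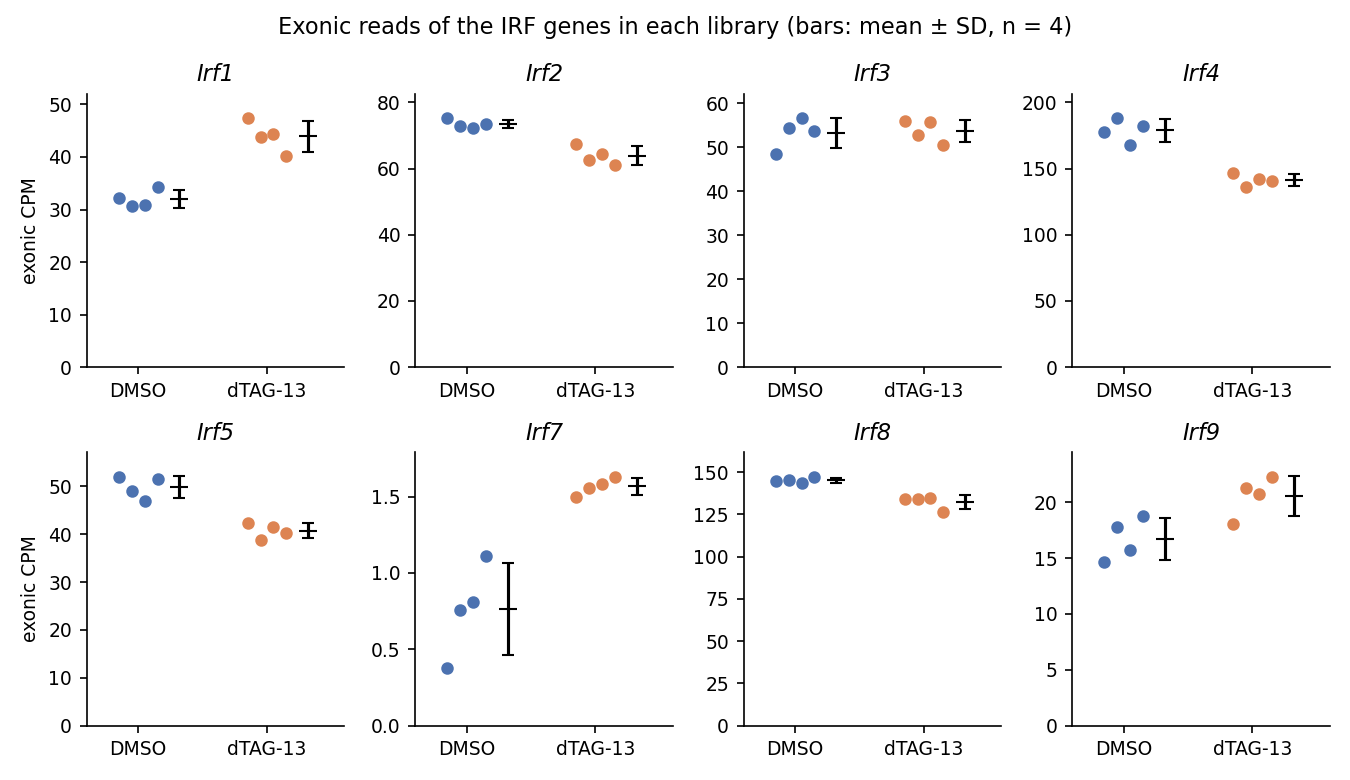
Exonic CPM (vertical axis, starting at 0) of each IRF gene in the 4 DMSO and 4 dTAG-13 libraries, 1 point per library in the order of the replicate numbers, with mean ± SD beside them (n = 4). The groups overlap in the panels of Irf3 and Irf9, and Irf7 stays between 0.380 and 1.63 CPM.

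Irf4 (ENSMUSG00000021356.9; chr13:30749226-30766976, plus strand, GRCm38) encodes the lymphoid IRF that later directs light chain rearrangement, class switching and the plasma cell programme. It read 177, 188, 168 and 182 CPM in DMSO and 146, 136, 142 and 141 CPM in dTAG-13. Every treated library lay below every control, and the change was -0.34 ± 0.04 (log2 ± SE) with an edgeR adjusted p of 1.43e-07. Its introns gave 106, 125, 107 and 118 CPM of intronic reads in DMSO and 83.5, 85.9, 88.5 and 83.5 CPM in dTAG-13. That intronic difference was -0.42 ± 0.07 with an edgeR adjusted p of 6.59e-05, again with no overlap of the groups, so intronic and exonic reads of Irf4 were both lower.

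Irf8 (ENSMUSG00000041515.9; chr8:120736358-120756694, plus strand) encodes the member shared by B, dendritic and macrophage lineages. Its exonic level was nearly the same in all controls, 145.0, 145.4, 143.6 and 147.2 CPM, and was 134.4, 133.9, 134.9 and 126.2 CPM in dTAG-13. The treated libraries were all lower by a small step, 8.91% in the fit (-0.13 ± 0.04, edgeR adjusted p = 0.00591). Without the lowest of them, dTAG-13 replicate 4, the change was -0.11 with an edgeR adjusted p of 0.0221. Mean intronic reads of Irf8 went from 123.6 ± 4.40 to 117.4 ± 9.48 CPM (SD over 4 libraries) with overlapping groups (-0.07 ± 0.07, edgeR adjusted p = 0.528). On whole-gene counts, exons and introns together, the Irf8 change of -0.12 missed the threshold (edgeR adjusted p = 0.0658). A read-through gene, Gm20388, spans Irf8 on the same strand, and its whole-gene reads overlap those of the genes inside it; it had 0 exonic reads.

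Irf1 (ENSMUSG00000018899.16; chr11:53770014-53778374, plus strand), an activator of antigen presentation genes, had the highest change among the members above 1 CPM in every library. It read 32.2, 30.7, 30.8 and 34.3 CPM in DMSO and 47.3, 43.7, 44.4 and 40.2 CPM in dTAG-13. The lowest treated library stood above the highest control, with a change of 0.46 ± 0.05 and an edgeR adjusted p of 1.98e-07. Intronic reads gave 12.9, 14.7, 10.7 and 10.8 CPM in DMSO and 18.0, 18.9, 16.1 and 15.4 CPM in dTAG-13. They were also higher in every treated library (0.49 ± 0.15, edgeR adjusted p = 0.0203), but on only 114 to 238 reads a library. The intronic call was lost without DMSO replicate 3 (0.44, edgeR adjusted p = 0.0673), without DMSO replicate 4 (0.45, adjusted p = 0.0653) and without dTAG-13 replicate 2 (0.44, adjusted p = 0.0751).

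Irf2 (ENSMUSG00000031627.8; chr8:46739732-46847458, plus strand), the counterpart of IRF1 on shared elements, moved the other way. It read 75.2, 72.9, 72.1 and 73.4 CPM in DMSO and 67.6, 62.7, 64.4 and 61.0 CPM in dTAG-13, with no overlap. The fitted fall was 12.9% (-0.20 ± 0.04, edgeR adjusted p = 0.000464). Irf2 is by far the longest member, with 100331 bases of intron, and 68.8% ± 2.59 of its whole-gene reads in DMSO were intronic (SD, n = 4). Its introns gave 522.6 ± 25.7 CPM without and 482.3 ± 18.7 CPM with the compound (SD over 4 libraries), and the groups overlapped (-0.12 ± 0.06, edgeR adjusted p = 0.249). On whole-gene counts the Irf2 change of -0.15 had an edgeR adjusted p of 0.0555.

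Irf5 (ENSMUSG00000029771.12; chr6:29526625-29541871, plus strand), which acts below the Toll-like receptors through MYD88, read 52.0, 49.1, 46.8 and 51.5 CPM in DMSO and 42.3, 38.8, 41.4 and 40.3 CPM in dTAG-13. All treated libraries were lower (-0.29 ± 0.05, edgeR adjusted p = 2.25e-05). Its intronic reads, 229 to 363 a library, changed by -0.20 ± 0.11 without passing the test (edgeR adjusted p = 0.25).

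Irf3 (ENSMUSG00000003184.15; chr7:44997648-45002848, plus strand), the constitutively expressed member activated by sensors, read 48.4, 54.3, 56.5 and 53.6 CPM in DMSO and 55.9, 52.8, 55.6 and 50.5 CPM in dTAG-13. The groups interleaved, and the estimate of 0.01 had a 95% interval of -0.08 to 0.11 on the log2 scale (edgeR adjusted p = 0.894). Its introns are short and gave 15 to 31 reads a library, too few to resolve a change of the size seen in Irf4 (-0.20 ± 0.35, edgeR adjusted p = 0.782).

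Irf7 (ENSMUSG00000025498.14; chr7:141262706-141266481, minus strand), which interferon induces and which amplifies the interferon response, was near the limit of detection. It had 11, 22, 31 and 41 exonic reads in DMSO, or 0.380, 0.760, 0.809 and 1.11 CPM. In dTAG-13 it had 55, 61, 61 and 57 reads, or 1.496, 1.56, 1.58 and 1.63 CPM. Treated libraries were close to one another and all above the scattered controls (1.01 ± 0.29, edgeR adjusted p = 0.00929). Without DMSO replicate 1, the lowest library, the change was 0.80 with an edgeR adjusted p of 0.035. The last bases of Irf7 overlap the opposite-strand gene Phrf1, which had 128.8 ± 4.40 CPM without and 129.8 ± 5.11 CPM with the compound (SD over 4 libraries) and was not called. Its annotated exons together cover the whole gene, so introns were not tested.

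Irf9 (ENSMUSG00000002325.14; chr14:55603571-55610030, plus strand), the DNA-reading subunit of ISGF3, read 14.7, 17.8, 15.7 and 18.8 CPM in DMSO and 18.0, 21.2, 20.8 and 22.3 CPM in dTAG-13. The groups overlapped, DMSO replicate 4 standing above dTAG-13 replicate 1. The fitted rise was 1.23-fold (0.30 ± 0.08, edgeR adjusted p = 0.00626). Intronic reads numbered 29 to 54 a library and gave 0.15 ± 0.30 (edgeR adjusted p = 0.815).

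Of the 7 members tested in intronic reads 1 rose and 1 fell, where 16.8% of 11229 genes were called, 8.26% higher and 8.5% lower. Groups of intronic values were apart for Irf1 and Irf4, against 19.5% of all genes tested, 9.51% with the treated libraries above and 10% with them below. Whether exonic and intronic changes of a gene differ was tested in a single model. In it 0 of 7 members passed at an adjusted p below 0.05 by edgeR, 0 had an unadjusted p below 0.05, and 0.319% of 10026 genes passed, 0.16% with the exonic change above the intronic one and 0.16% with it below. The differences ran from -0.10 for Irf5 to 0.18 for Irf3, with 95% intervals of -0.06 to 0.21 for Irf4 and -0.32 to 0.23 for Irf1. The interval of Irf1 is wide against its exonic change, while that of Irf4 spans less than its exonic change. In neither gene was equality of the changes shown.

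**Figure D2:**
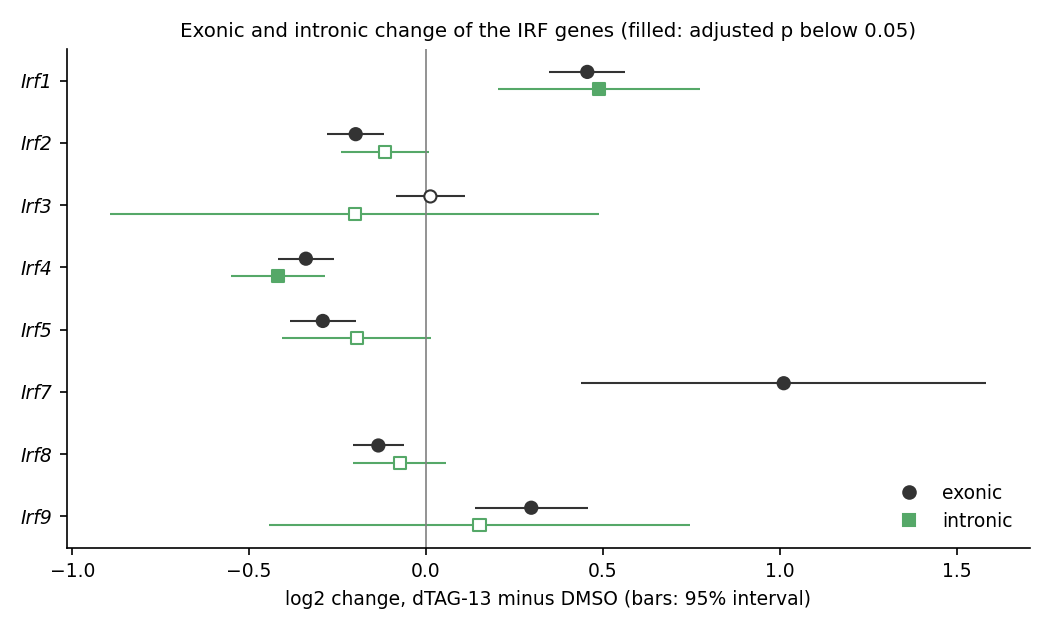
Log2 change (dTAG-13 minus DMSO, horizontal axis) of exonic reads (circles) and intronic reads (squares) for each IRF gene with 95% intervals; filled symbols have an adjusted p below 0.05. Both symbols are filled for Irf1 (0.46 and 0.49) and Irf4 (-0.34 and -0.42) only, and Irf7 has no intronic value.

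To compare levels between members, exonic CPM were divided by the length of annotated exon. In DMSO the order was Irf4 (36.5 ± 1.75 CPM per kb), Irf8 (20.6 ± 0.210), Irf5 (17.2 ± 0.818), Irf3 (15.5 ± 0.997), Irf2 (9.92 ± 0.173), Irf1 (8.05 ± 0.420), Irf9 (3.10 ± 0.348) and Irf7 (0.202 ± 0.0792; SD, n = 4 each). Library ranges of neighbours in that order overlapped only for Irf5 (16.1 to 17.9) and Irf3 (14.1 to 16.4). In dTAG-13, Irf4 was at 28.8 ± 0.886, Irf8 at 18.8 ± 0.588, Irf3 at 15.6 ± 0.739, Irf5 at 14.02 ± 0.529, Irf1 at 11.05 ± 0.740, Irf2 at 8.64 ± 0.377, Irf9 at 3.82 ± 0.335 and Irf7 at 0.415 ± 0.0148 CPM per kb (SD, n = 4 each). Irf1 thus stood above Irf2 and Irf3 above Irf5 after treatment, with no shared range in either pair.

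**Figure D3:**
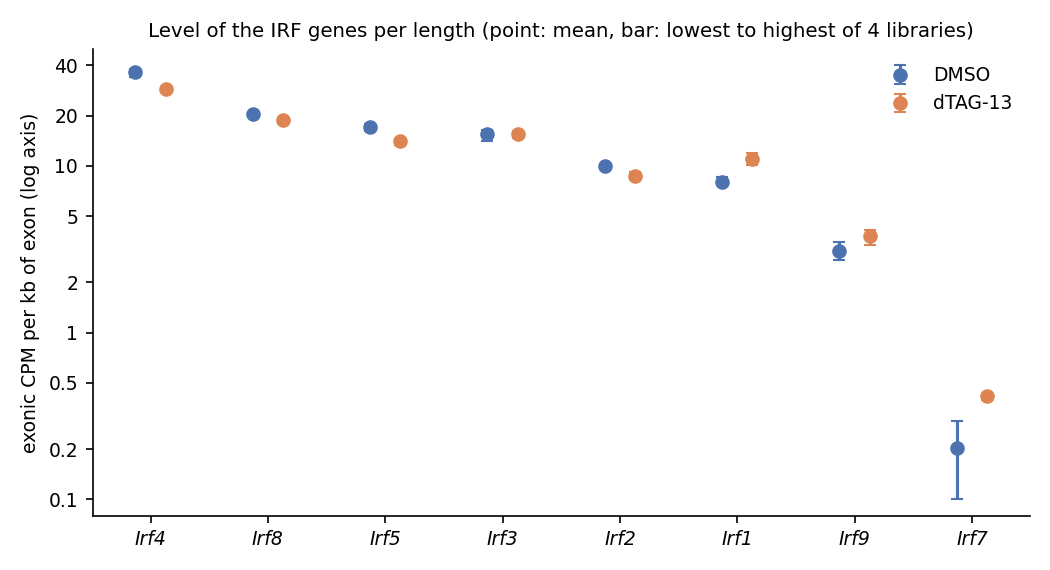
Exonic CPM per kb of exon (log axis) for each IRF gene, in the order of the DMSO mean; points are means and bars run from the lowest to the highest of 4 libraries. Irf4 leads in both groups, and Irf1 passes Irf2 after dTAG-13 (11.05 against 8.64).

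The order depends on which length is used. Divided by the longest annotated transcript, Irf8 (41.9 CPM per kb in DMSO, 38.2 in dTAG-13) came before Irf4 (37.5 and 29.7), and Irf3 (26.2) already stood above Irf5 (22.2) in DMSO. Irf1 lay below Irf2 in DMSO (14.98 and 18.5) and above it in dTAG-13 (20.6 and 16.1) by that length too. Summed over the 8 genes per kb of exon, the family came to 111 ± 2.71 CPM per kb without and 101.1 ± 2.98 with the compound (SD over 4 libraries). Irf4 made up 32.9% ± 0.932 of that sum and, after treatment, 28.5% ± 0.596. The share of Irf1 was 7.25% ± 0.309 and 10.9% ± 0.459, and that of Irf8 18.6% ± 0.289 and 18.6% ± 0.432 (SD, n = 4 each). Like the order, these shares depend on the length used, and by the longest transcript Irf4 would not have the largest.

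Ratios of related members within a library need no scaling between libraries. The log2 ratio of Irf8 to Irf4 exonic reads was -0.29, -0.37, -0.22 and -0.31 in DMSO and -0.12, -0.02, -0.07 and -0.16 in dTAG-13, a 1.15-fold shift toward Irf8. For Irf1 against Irf2 the log2 ratio was -1.22, -1.25, -1.23 and -1.10 in DMSO and -0.51, -0.52, -0.54 and -0.60 in dTAG-13, a 1.57-fold shift toward the activator of the pair. Irf7 against Irf3 gave -6.93, -6.13, -6.10 and -5.58 in DMSO and -5.21, -5.07, -5.12 and -4.94 in dTAG-13, a 2.14-fold shift toward Irf7. In each of the 3 pairs all treated libraries lay above all controls. The two-sided exact permutation p was 0.0286 for each pair, also after Benjamini-Hochberg adjustment over the 3 pairs, and 0.0286 is the smallest p that 4 against 4 libraries allow. The ratios use the same reads as the changes above and are not separate evidence of them.

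**Figure D4:**
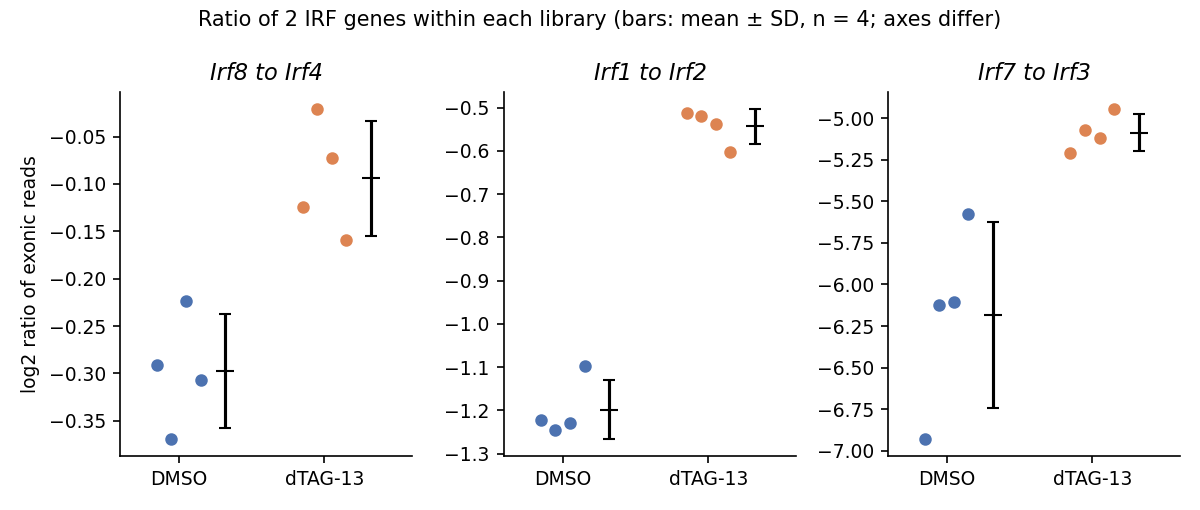
Log2 ratio of exonic reads of 2 IRF genes within each library (vertical axes differ between panels and do not start at 0), 1 point per library with mean ± SD (n = 4). In all 3 panels the dTAG-13 points lie above the DMSO points, and DMSO replicate 1 is the lowest point for Irf7 to Irf3 (-6.93).

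The ligands of the pathway were not read. For 21 interferon genes of types I, II and III, a set put together after the values were seen, 0 exonic reads were counted in all 8 libraries. A count of 0 allows up to 3 reads a library, or 0.104 CPM in the shallowest library and 0.0769 CPM in the deepest, counting error only. Many of these genes are Ifna copies of like sequence, and reads that match several copies may have gone uncounted.

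For sensors, adaptors and kinases upstream of IRF3, IRF5 and IRF7, 21 genes were listed. Of these 20 were found by name in the counts and 18 had enough reads to test. Of the 18, 12 rose, 1 fell and 5 did not pass, with a median change of 0.26. Over all genes tested, 14.3% were called higher and 14% lower. Tmem173, which encodes STING, the adaptor for cytosolic DNA, went from 79.6 to 143 CPM (0.84 ± 0.04). Unc93b1, the chaperone that brings the endosomal Toll-like receptors to their compartment, went from 132.8 to 213 CPM (0.68 ± 0.04). Tlr4, the endotoxin receptor, rose from 46.2 to 67.8 CPM (0.55 ± 0.04), and Tlr9, which senses unmethylated CpG DNA, from 5.99 to 16.3 CPM (1.43 ± 0.11). Traf6, a ubiquitin ligase below MYD88 and the gene that fell (named after its value was seen), went from 75.9 to 66.6 CPM (-0.19 ± 0.04). In intronic reads 6 of 17 tested genes of this list rose and 1 fell, against 8.26% and 8.5% of all genes tested.

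Partners that sit on DNA or protein with IRFs were tested for 14 of 15 genes. Of the 14, 8 rose, 2 fell and 4 did not pass, against 14.3% higher and 14% lower over all genes tested. The median of the 14 was 0.27. Among the risers, Def6, an IRF4-binding exchange factor, went from 40.1 to 109.8 CPM (1.45 ± 0.05) and Batf, the AP-1 partner of IRF4 and IRF8, from 9.24 to 16.3 CPM (0.82 ± 0.08). Spi1, which encodes PU.1, rose from 29.9 to 42.4 CPM (0.51 ± 0.06), whereas Spib, the other ETS partner, was at 53.8 and 55.6 CPM and did not pass (0.05 ± 0.04). Stat2, a partner of IRF9 in ISGF3, rose from 33.7 to 41.2 CPM (0.29 ± 0.05). Ikzf1, the zinc finger factor Ikaros, went from 245.9 to 314.0 CPM (0.35 ± 0.03), Irf2bpl from 70.5 to 106.2 CPM (0.59 ± 0.04) and Ep300, an acetyltransferase coactivator, from 183.3 to 219.6 CPM (0.26 ± 0.04). Tcf3, which encodes E2A, fell from 458.6 to 332.7 CPM (-0.46 ± 0.03), and Irf2bp1, a corepressor bound by IRF2, from 50.1 to 44.4 CPM (-0.17 ± 0.05). Crebbp (0.09), Ikzf3 (0.05) and Irf2bp2 (-0.01) did not pass, and Batf3 had too few reads. In intronic reads 6 of 12 tested partners rose and 1 fell, against 8.26% and 8.5% of all genes tested.

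**Figure D5:**
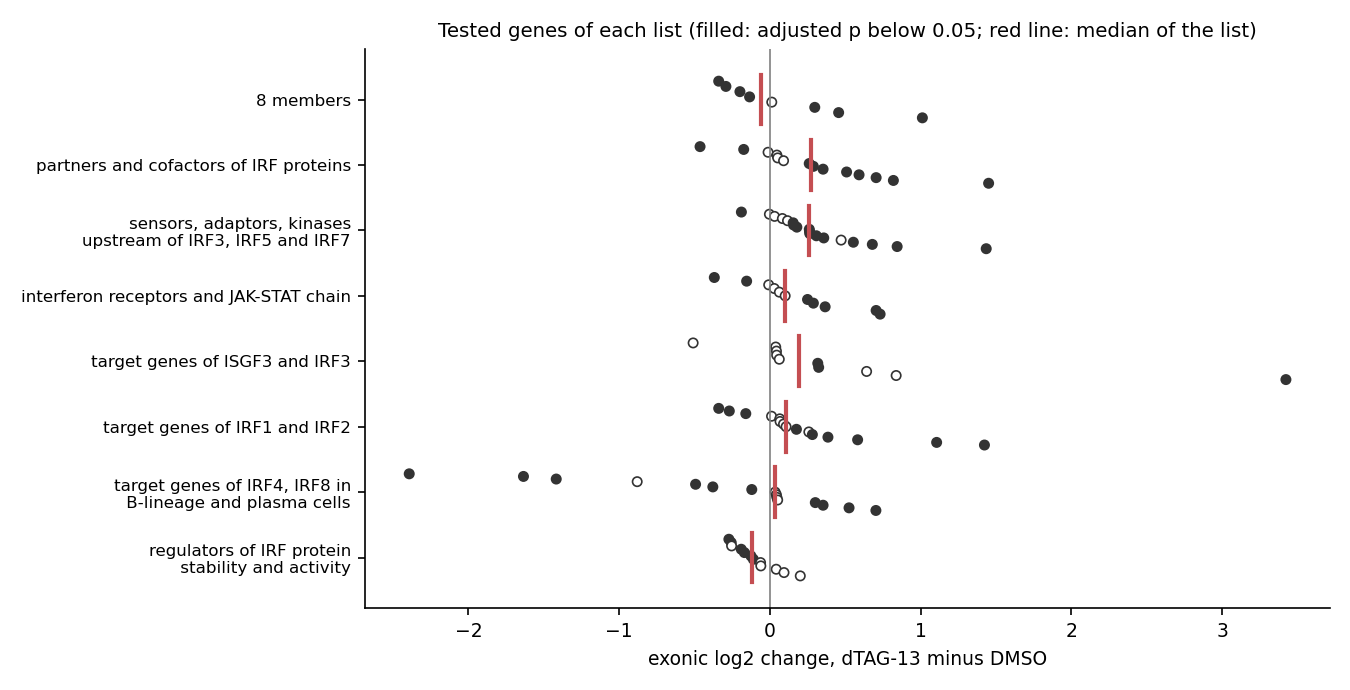
Exonic log2 change (dTAG-13 minus DMSO, horizontal axis) of every tested gene of the IRF family and of 7 lists around it; filled points have an adjusted p below 0.05 and the red line is the median of the list. The medians run from -0.12 for the regulators of IRF protein to 0.27 for the partners, beside -0.003 over all genes tested.

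Interferon receptors and the kinases and STATs behind them were tested for 11 of 12 genes: 5 rose, 2 fell and 4 did not pass, with a median of 0.10. Over all genes tested, the shares were 14.3% higher and 14% lower. The receptor chains for interferon gamma moved apart, Ifngr1 from 42.1 to 54.3 CPM (0.37 ± 0.04) and Ifngr2 from 53.0 to 41.1 CPM (-0.37 ± 0.04). Socs1, a feedback inhibitor of cytokine receptor signalling, rose from 38.3 to 63.6 CPM (0.73 ± 0.05). In intronic reads 3 of 11 rose and 1 fell, against 8.26% and 8.5% of all genes tested. A list of 12 regulators of IRF protein stability and activity was drawn up from general knowledge, and not every entry need act on an IRF protein directly. Of these 6 fell, 6 did not pass and 0 rose by edgeR, against 14% lower and 14.3% higher over all genes tested. The median of the 12 was -0.12. Of the 12, 2 were higher at an unadjusted p below 0.05, and DESeq2 called 0 higher. Nedd4 (-0.26 ± 0.04), Rbck1 (-0.17 ± 0.04) and Traf3ip2 (-0.27 ± 0.06) were among those that fell. All of these are changes of RNA, and protein or phosphorylation was not measured.

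Genes that IRFs are known to regulate were taken as 3 lists, to be set beside 14.3% of all genes tested called higher and 14% lower. Of 20 targets of ISGF3 and IRF3, 10 had enough reads to test: 3 rose, 7 did not pass and 0 fell by edgeR, with 0 lower at an unadjusted p below 0.05 and 0 lower by DESeq2; the median was 0.19. Parp14, an ADP-ribosyltransferase, rose from 80.2 to 99.998 CPM (0.32 ± 0.04) and Xaf1, a proapoptotic factor, from 11.7 to 14.6 CPM (0.32 ± 0.08). Oasl2 had 0 to 6 reads a library in DMSO and 21 to 33 in dTAG-13 (3.42 ± 0.57), so its size of change is poorly fixed. Isg15 stayed under 1 CPM on average in both groups, and Ifit2 was at 20.2 and 20.7 CPM; both were named after their values were seen and did not pass. Trim25 (0.06) and Eif2ak2 (0.04), also named after their values were seen, did not pass either.

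For IRF1 and IRF2, 15 of 18 listed targets were tested: 6 rose, 3 fell and 6 did not pass, with a median of 0.11. Over all genes tested, 14.3% were higher and 14% lower. The guanylate-binding protein gene Gbp2 went from 35.7 to 95.8 CPM (1.42 ± 0.06) and Gbp3 from 41.6 to 54.3 CPM (0.39 ± 0.05), though Gbp2 shares sequence with its copy Gbp2b and reads may be split between them. Igtp, an immunity-related GTPase, went from 10.2 to 21.9 CPM (1.11 ± 0.09), and Casp1, the inflammasome protease, from 22.8 to 34.1 CPM (0.58 ± 0.07). Among those that fell were Nlrc5 (-0.34 ± 0.04), the activator of MHC class I genes, and Il15ra (-0.27 ± 0.07), both named after their values were seen. The 6 that did not pass were Tap1 (0.07), Psmb8 (0.11), Psmb9 (0.09), Psmb10 (0.01), B2m (0.07) and Cd274 (0.26). Tap2 was among those that rose (0.18 ± 0.04), and it and these 6 were also named after their values were seen. In intronic reads 5 of 16 rose and 1 fell, against 8.26% and 8.5% of all genes tested.

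For IRF4 and IRF8, 15 of 18 B-lineage and plasma cell targets were tested: 4 rose, 6 fell and 5 did not pass, with a median of 0.03. Over all genes tested, 14.3% were higher and 14% lower. The largest falls were in Igll1 (-2.39 ± 0.04) and Vpreb1 (-1.63 ± 0.05), the surrogate light chain genes, and in Myc (-1.42 ± 0.04), and Ptpn6, a phosphatase, rose (0.70 ± 0.04). Igll1 and Vpreb1 are textbook targets of EBF1 itself as well as of IRF4 and IRF8, and Ebf1 stands in this list too. In intronic reads 3 of 14 rose and 4 fell, against 8.26% and 8.5% of all genes tested. Whether any list's changes come by way of its IRF was not tested.

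For each called member, the genes with the nearest pattern were sought among 7805 genes of at least 10 CPM, by the root mean square difference of centred log2 CPM over the 8 libraries. Irf4 was most like Rcl1 (0.0293) and Gstt2 (0.0348), Irf8 most like Rnf126 (0.0128) and Net1 (0.0150), and Irf5 most like Zfp664 (0.0273) and Hyou1 (0.0287). Irf1 was most like Dynll2 (0.0281) and Actb (0.0402), and Irf2 most like Uck2 (0.0177) and Atp1b3 (0.0213). Irf9 had no neighbour as near, with Mus81 (0.0552) and Plekhg3 (0.0812) the closest, and Irf7, with the fewest reads, was farthest from any, at 0.129 from Klrd1 and 0.150 from Fxyd5. These distances describe 8 libraries in 2 groups, where any gene with a like change between the groups comes near.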

How the data were processed

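Total RNA of 4 DMSO and 4 dTAG-13 libraries was made into stranded, rRNA-depleted libraries, per the labels' protocols. The authors deposited raw counts per gene over exons and over whole genes. They also deposited a DESeq2 table with log2 fold changes, p-values and adjusted p-values for exonic and intronic reads, per the file headers. STAR 2.7.4a, Subread 2.0.0 with featureCounts, SAMtools 1.10, deepTools 3.3.2, DESeq2 and the builds GRCm38.p4 and mm10 are named in the submitters' processing notes. What each tool did, which gene annotation was counted and whether counting used strand was not given in the sources used here.

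Intronic counts were whole-gene minus exon counts. Counts were tested in R 4.3.3 with edgeR 4.0.16 (quasi-likelihood F test, TMM scaling, filterByExpr with minimum count 10 and minimum total 15, treatment as the only term), with Benjamini-Hochberg adjustment at 0.05 over all genes tested. CPM use TMM-scaled library sizes and show shares of RNA, not amounts per cell. The exonic and intronic changes were compared in a model with library as a block. Within-library ratios (0.5 added to each count) were tested by exact permutation. DESeq2 1.42.0, RLE scaling, other filters, whole-gene counts, a test against 1.5-fold, a replicate block and leaving out each library were alternatives. So was leaving out Gm26917 and Gm42418.

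No library repeats another: pairs within a group had a chi-square of 4.76 to 13.4 per degree of freedom. For members above 10 CPM the fitted standard error, which holds counting error and the spread between libraries, was 0.04 to 0.08 on the log2 scale. On simulated data of this depth the exonic test recovered 52.5% of 99 changes of 0.4 and 96.9% of 97 changes of 1 (log2), set among 12758 genes. The simulation gave every gene the same fixed spread between libraries, not one fitted to these data. These shares therefore need not hold for the members.

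Coordinates and exon lengths are GENCODE vM21 on GRCm38, 1-based. Of 47937 IDs, 47224 found a name in a separate reference table of gene names, 11 took the authors' name and 702 had none. Promoter sequences are RefSeq's on GRCm38.p6. The members, lists and rules were chosen with earlier results of these data known. The text names all members, up to 4 called genes of smallest p in each list, all genes of the partner list, the nearest genes on the chromosome and the 2 genes nearest in pattern; other genes are marked as named after their values were seen. Some genes that fall under these rules are not reported here.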

Additional observations from a re-analysis of the deposited data

Results flagged for a closer look

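Of 31 groups of 4 values of the IRF genes that were looked at, 2 held a library far from the other 3 by Dixon's ratio, and chance alone marks about 1 in 20 such groups. Irf8 read 126.2 CPM of exonic reads in dTAG-13 replicate 4, while the other treated libraries were at 133.9 to 134.9 CPM. Irf7 had 0.153 CPM of intronic reads in DMSO replicate 3, which is 2 reads, and 0 in the other 7 libraries.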

How the results depend on the processing

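The 3 higher and 4 lower exonic calls among the IRF genes were kept with RLE scaling, DESeq2, both other filters, a replicate block and each library left out. Leaving out Gm26917 and Gm42418 kept these calls too. Whole-gene counts left 2 lower, since Irf2 and Irf8 lost their call. Tested against a 1.5-fold change, 0 members were called higher and 0 lower in exonic and in intronic reads, and over all genes 197 and 206 passed in exonic and 133 and 146 in intronic reads. Leaving out each library in turn gave 0 to 1 intronic member called higher. Some estimates crossed 0, and none of these was called: exonic Irf3 ran from -0.0295 to 0.0419, and the exonic minus intronic difference from -0.15 to 0.0474 for Irf1 and from -0.0708 to 0.36 for Irf9. Genes whose exonic change stood above or below their intronic change numbered 16 and 16, and 3 to 15 and 8 to 18 with a library left out.

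Libraries of the same replicate number did not deviate alike: their correlations ran from -0.024 to 0.045 in exonic and from -0.005 to 0.058 in intronic reads. Those of different numbers ran from -0.0875 to 0.11 and from -0.0845 to 0.0871. This cannot show whether the libraries were prepared in pairs. With a replicate block 1884 genes were called higher and 1869 lower in exonic reads, against 1841 and 1808 without it. The block left 7 genes with an exonic change below the intronic one. Sign changes over same-numbered pairs cannot give a p under 0.125 for the 3 ratios.

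Depth limits Irf7 (11 to 61 exonic reads) and the introns of Irf3 and Irf9. Irf1, Irf2, Irf3, Irf5 and Irf7 overlap genes on the opposite strand; where reads of both strands were counted together, these could not be told apart.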

Other observations

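Of 25 genes that overlap an IRF gene or are its nearest protein-coding neighbour, 22 were in the count tables and 15 had enough reads to test. Of these 1 was called, against 28.3% of all genes tested. It was Dusp22, a phosphatase gene 37995 bases below Irf4 on the same strand, which rose from 6.78 ± 0.745 to 13.15 ± 1.04 CPM (SD, n = 4 each; log2 change 0.95 ± 0.10, edgeR adjusted p = 1.55e-08) while Irf4 fell. Exoc2, on the other side of Irf4, read 61.4 ± 5.01 and 65.1 ± 2.38 CPM and was not called (edgeR adjusted p = 0.254). Bcl2l12, which overlaps the start of Irf3 on the opposite strand, read 19.4 ± 1.81 and 17.0 ± 0.997 CPM (-0.20 ± 0.08, edgeR adjusted p = 0.0507). Rnf31, which overlaps the start of Irf9 on the same strand, had a change of 0.04 ± 0.05 (edgeR adjusted p = 0.561).

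The authors' deposited table gives log2 fold changes of 0.44 for Irf1, -0.33 for Irf4, 0.82 for Irf7 and 0.27 for Irf9 in exonic reads. In intronic reads the authors' deposited table gives 0.41 for Irf1 (adjusted p = 0.0174) and -0.40 for Irf4. The whole-gene reads of Gm20388, the read-through gene around Irf8, summed to 992837 over the 8 libraries. The other genes inside it summed to 878040 on its own strand and to 1478380 on both strands. Its count therefore lay between the same-strand and the both-strand sum.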
